A study of Mus musculus with 12 samples.

Results

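The data described here are the 6 arrays of Control atria, from a series of 12 arrays of atrial RNA of male mice, labelled as biological replicates. The 6 Control animals carried the Nppa-Cre4 transgene (Cre4), in which the Nppa promoter drives Cre recombinase in atrial muscle, and no CT transgene. The other 6 animals (Cre4-CT, called Tbx3) carried Cre4 together with the CT transgene, from which Tbx3, a T-box repressor, is switched on in atria. Cre4 is thus shared by all 12 animals, and no array comes from a mouse without a transgene, so the Control arrays are atria with Cre rather than wild-type atria. The labels state neither the age of the animals nor whether left and right atria were kept apart. The platform was the Illumina Sentrix Mouse-6 beadchip, on which each gene is read by 1 or more oligonucleotide probes on beads. The members were chosen by their titles alone, and no measured value entered the choice. The question here is what a normal atrial expression profile looked like and how far the arrays of 6 animals of 1 group differed. Levels of the Tbx3 arrays are not compared, and their spread alone is set beside that of the Control arrays.

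The atria are the receiving chambers of the heart, and their muscle cells differ from those of the ventricles in their contractile isoforms, their channels and their secretion of natriuretic peptides. Atrial muscle uses the myosin light chains Myl7 and Myl4, stores the hormone encoded by Nppa in granules, and conducts rapidly through gap junctions of the connexins Gja1 and Gja5. Its energy comes mostly from oxidation in mitochondria, which take up a large share of the cell.

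Values are log2 signals of 46114 probes, 29533 of them with a single gene symbol. Each of the 17655 genes is represented by its probe with the highest mean over the 6 Control arrays. The mean level of these genes ran from 4.60 to 15.40 with a median of 5.86. Receptors of smell, pheromones and taste and keratin-associated proteins, 1088 genes that heart muscle is not known to use, had a median of 5.39, and their 95th percentile, 5.87, was taken as the background level. By it 8724 genes (49.4%) lay above background. Correlations between the 6 arrays over all probes ran from 0.964 to 0.983. Probes differ in brightness for reasons of their own sequence, so a difference between genes is a difference in signal and not in transcript number. As a yardstick, among 4773 genes above background with 2 or more probes, the brightest probe exceeded the second by a median of 1.12 and by 3.23 at the 90th percentile (log2). For the 338 such genes over a level of 10 the median gap was 3.89 and the 90th percentile 5.92.

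Contractile and mitochondrial genes filled the top of the profile. The brightest was Myl4, the atrial essential myosin light chain, at 15.40 on every array. Its SD was 0 because it ranked first on all 6 arrays and quantile normalization gives the top rank a single value. Tnnt2, cardiac troponin T, followed at 15.03 ± 0.13 (SD, n = 6), Actc1, cardiac actin, at 14.79 ± 0.12, and Myl7, the atrial regulatory light chain, at 14.47 ± 0.22. Atp2a2, the calcium pump of the sarcoplasmic reticulum, lay at 14.33 ± 0.30. The 25 brightest genes held 7 members of the sarcomere list, also Tcap, Actn2 and the stretch-responsive titin partner Ankrd1. They held 6 members of the oxidative phosphorylation list: Atp5b, the catalytic beta subunit of ATP synthase, at 14.21 ± 0.22, Atp5g3 at 14.03 ± 0.31, Cox6c at 13.99 ± 0.18, Cox4i1 at 13.78 ± 0.08, Cox7a1 at 13.54 ± 0.21 and Cox6a2 at 13.53 ± 0.25. Atp5h, Ndufa13 and Chchd10, which also encode mitochondrial proteins, all lay above 13.7. Hba-a1 and Hbb-bs, the globins of red cells, stood among them at 14.32 ± 0.92 and 14.13 ± 0.87 and had the largest spread of the 25. Hspa8, the constitutive chaperone Hsc70, Tpt1, and the ribosomal genes Rpl41 and Rps20 completed the housekeeping part. Nppa, atrial natriuretic factor, was at 13.58 ± 0.16 with a lowest value of 13.33, a median of 13.58 and a highest of 13.80. Fabp3, the fatty acid binding protein of heart, was at 13.56 ± 0.25. The last gene of the 25 had a level of 13.53 and the next one 13.52, so the limit falls within the spread between arrays. Of the 140 genes over a level of 12, 28 were members of the oxidative phosphorylation list, 33 were ribosomal protein genes by symbol and 12 were sarcomere genes.

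The signals of the chamber-specific isoforms differed by margins of unequal size. Myl7 exceeded Myl2, the ventricular regulatory light chain, by 8.33 ± 0.39 (SD over 6 arrays), a signal ratio of 322 that ranged from 194 to 431. Myl2 itself, at 6.15 ± 0.19, lay just above the background level, with a lowest value of 5.98, a median of 6.10 and a highest of 6.49. Myl4 exceeded Myl3, the ventricular essential light chain, by 6.12 ± 0.60. Because Myl4 was pinned to the top value, that spread is the spread of Myl3, which ran from 8.59 in Control 3 to 10.15 in Control 1. Myh6, the fast alpha myosin heavy chain, exceeded Myh7, the slow beta chain, by 4.73 ± 0.33, and Myh7 was at 8.35 ± 0.26. That difference is under 5.92, the 90th percentile of the gap between probes of a single gene over a level of 10. Nppa exceeded Nppb, the B-type natriuretic peptide, by only 1.54 ± 0.30, less than the gap between probes of a single gene at its 90th percentile. All 6 arrays had the same order in each of these pairs. Other ventricular genes were dim: Irx4, a ventricular homeobox regulator, had a level of 4.92 and Hey2, a ventricular Notch effector, 5.47. Of the ventricular list 10 of 14 measured genes lay above background, but the bright ones, Gja1 at 12.94 and Pln at 12.76, are also made in atria. Of the atrial list 21 of 24 lay above background. Mybphl, an atrial myosin-binding protein, was at 13.48 ± 0.15, Stard10 at 12.54, Dkk3 at 12.32 and Corin, the protease that activates pro-ANF, at 11.24. Bmp10, a growth factor of atrial muscle, and Sbk2 and Sbk3, atrial kinases, were at 5.52, 5.24 and 5.46, below the background level. Other members ran against the labels of their lists too: of the atrial genes Sln, Kcna5, Chrm2 and Nr2f2 were at 6.96, 6.53, 6.33 and 6.02, and of the ventricular genes Lrrc10, Myl3 and Myh7 were at 9.78, 9.28 and 8.35.

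**Figure D1:**
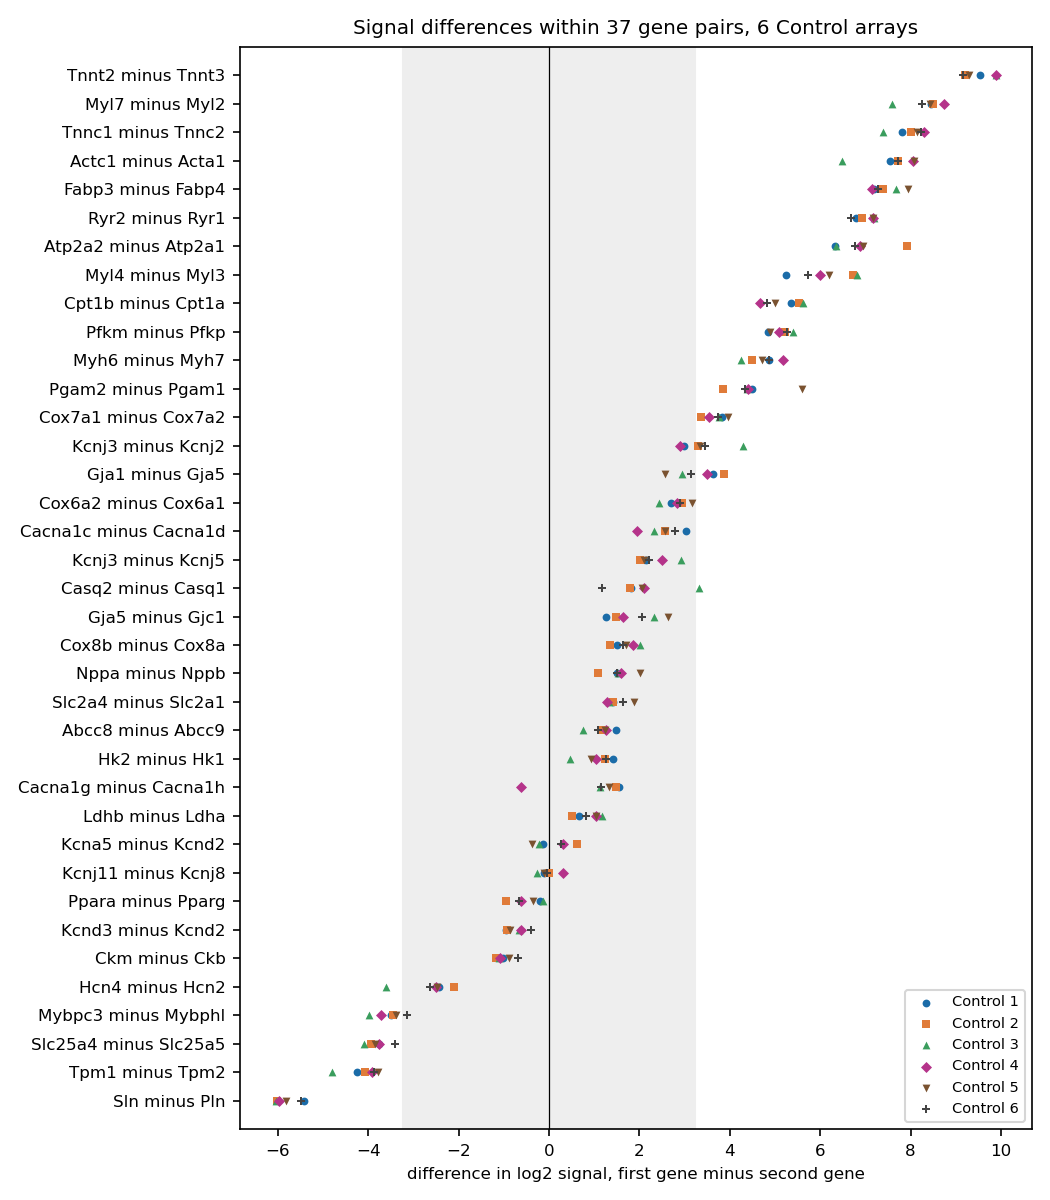
Difference in log2 signal between the genes of 37 pairs, first gene minus second gene, with 1 symbol per Control array and the pairs sorted by their mean. The grey band is plus or minus 3.23, the 90th percentile of the gap between the brightest and second probe of a single gene. For genes over a level of 10 that percentile is 5.92. Tnnt2 minus Tnnt3 lies farthest to the right and Sln minus Pln farthest to the left, and the arrays of a pair are widest apart for Cacna1g minus Cacna1h (SD 0.81) and Casq2 minus Casq1 (SD 0.71).

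Of 40 listed pairs 37 could be compared, and 19 differed by more than 3.23. That yardstick covers genes of all levels above background, and for genes over a level of 10 it was 5.92. In 33 pairs the ranges of the 2 genes over the 6 arrays did not overlap. Several cardiac isoforms of the thin filament and the calcium store exceeded their skeletal muscle counterparts. Tnnt2 exceeded Tnnt3, fast skeletal troponin T, by 9.50 ± 0.33, and Tnnc1, cardiac troponin C, exceeded Tnnc2 by 7.98 ± 0.33. Actc1 exceeded Acta1, skeletal actin, by 7.60 ± 0.59, with the lowest difference, 6.48, in Control 3. Atp2a2 exceeded Atp2a1, the skeletal calcium pump, by 6.87 ± 0.58, and Ryr2, the cardiac calcium release channel, exceeded Ryr1 by 6.98 ± 0.22. Tnnt3, Tnnc2 and Ryr1 were at 5.53, 5.52 and 5.56, below background, so the differences from them are set against background signal and have no exact size. Casq2, the cardiac calsequestrin, exceeded Casq1 by a smaller and less steady 2.04 ± 0.71, and Casq1 was at 8.56 ± 0.51. The fast skeletal genes Tnni2 and Myl1 were bright, at 9.19 ± 0.99 and 11.61 ± 0.34. Of the skeletal muscle list 8 of 18 measured genes lay above background. They included Eno3 at 11.75, Ckm at 9.88, Atp2a1 at 7.465, Acta1 at 7.185 and Mybpc2 at 5.91. Myh1, Myh4, Mylpf, Pvalb and Actn3, of the same list, lay between 4.97 and 5.59, below background. Tnni1, slow skeletal troponin I, was at 5.68 ± 0.30. In several pairs a gene known from atrial or striated muscle read lower than its partner. Sln, sarcolipin, an atrial inhibitor of the calcium pump, was at 6.96 ± 0.21 and lay below Pln, phospholamban, by -5.80 ± 0.27 (Sln minus Pln). Tpm1, the cardiac tropomyosin, was at 6.49 ± 0.24 and Tpm1 minus Tpm2 was -4.12 ± 0.38. Slc25a4, the muscle ATP and ADP exchanger, was at 7.80 ± 0.20 and Slc25a4 minus Slc25a5 was -3.80 ± 0.23. Ckm minus Ckb, muscle minus brain creatine kinase, was -0.997 ± 0.18. Mybpc3 minus Mybphl was -3.54 ± 0.29. These 5 pairs are differences between probes, and the cause was not tested.

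The connexins form the channels of gap junctions. Of 13 measured connexin genes 4 lay above background. Gja1, connexin 43, was by far the brightest at 12.94 ± 0.10, from 12.79 to 13.06. Gja5, connexin 40, an atrial and conduction system connexin, was at 9.67 ± 0.53, from 9.07 in Control 2 to 10.51 in Control 5. Gja4, connexin 37 of endothelium, was at 8.20 ± 0.36, and Gjc1, connexin 45, at 7.77 ± 0.15. Gja1 exceeded Gja5 by 3.27 ± 0.48, close to the yardstick of 3.23 and under the 5.92 of genes over a level of 10. Gja5 exceeded Gjc1 by 1.90 ± 0.53. Neighbours in this order did not overlap except for Gja4 and Gjc1, whose ranges met between 7.73 and 7.96.

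Of 30 measured potassium channel genes 19 lay above background, at levels between 5.89 and 9.11. Kcnq1, which carries the slow delayed rectifier, was the brightest at 9.11 ± 0.13, followed by Kcnj3, a subunit of the acetylcholine-gated channel, at 8.99 ± 0.33 and the tandem-pore channel Kcnk3 at 8.86 ± 0.15, and the ranges of these 3 overlap. Kcnj3 exceeded its partner Kcnj5 by 2.31 ± 0.34 and the inward rectifier Kcnj2, at 5.61 ± 0.26 and below background, by 3.38 ± 0.50. Kcnj3 was higher in Control 3, at 9.66, than in the other 5 arrays, which lay between 8.79 and 8.91. Among subunits of ATP-sensitive channels, Abcc8, the SUR1 receptor, exceeded Abcc9, SUR2, by 1.16 ± 0.24, and the ranges of Kcnj11 and Kcnj8 overlapped (Kcnj11 minus Kcnj8 was -0.04 ± 0.20). Kcnh2, the rapid delayed rectifier, was at 7.42 ± 0.38. Kcna5, the atrial ultrarapid channel, and Kcnd2, a transient outward channel, had nearly equal signals of 6.53 ± 0.39 and 6.46 ± 0.14. Kcnd3 was at 5.71 ± 0.15, below background. Kcnk6 at 7.52 ± 0.08 and Abcc8 at 8.14 ± 0.10 varied little. Kcnab2, Kcnip2, Kcnj12, Kcnn2, Kcne4 and Kcne1 lay between 5.89 and 6.65, close to the background level.

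Of 16 calcium and pacemaker channel genes 7 lay above background. Cacna1c, the pore of the main cardiac L-type channel, was at 8.05 ± 0.22 and exceeded Cacna1d, the L-type pore known from the sinus node, by 2.53 ± 0.37, where Cacna1d was at 5.51, below background. The auxiliary subunits Cacnb2 and Cacna2d2 had levels of 8.13 ± 0.15 and 8.07 ± 0.30, which overlap with that of Cacna1c. Cacna2d1 and Cacnb1 were at 6.81 ± 0.24 and 6.27 ± 0.27. Of the T-type pores, Cacna1g was at 6.38 ± 0.21 and Cacna1h averaged 5.38, below background. Cacna1g minus Cacna1h was 1.00 ± 0.81, with -0.62 in Control 4 and 1.12 to 1.55 in the others. Of the pacemaker channels, Hcn2 was at 8.01 ± 0.40 and Hcn4, the main pacemaker channel of the sinus node, at 5.38 ± 0.19, below background, with Hcn4 minus Hcn2 at -2.63 ± 0.52. Of 22 measured pacemaker and conduction genes 13 lay above background, among them Popdc2 at 10.24, Gjc1 at 7.77 and Smoc2 at 7.59, while Isl1 was at 5.64, Shox2 at 5.70 and Tbx18 at 6.17. Tbx3 had a level of 6.59 and Tbx2 of 5.78 in these Control atria. Of 11 measured sodium channel list members 4 lay above background. The intracellular modulators Fgf12 and Fgf13, at 9.61 ± 0.09 and 9.28 ± 0.17, were far brighter than Scn10a at 6.36 ± 0.25 and the beta subunit Scn4b at 5.96 ± 0.18.

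**Figure D2:**
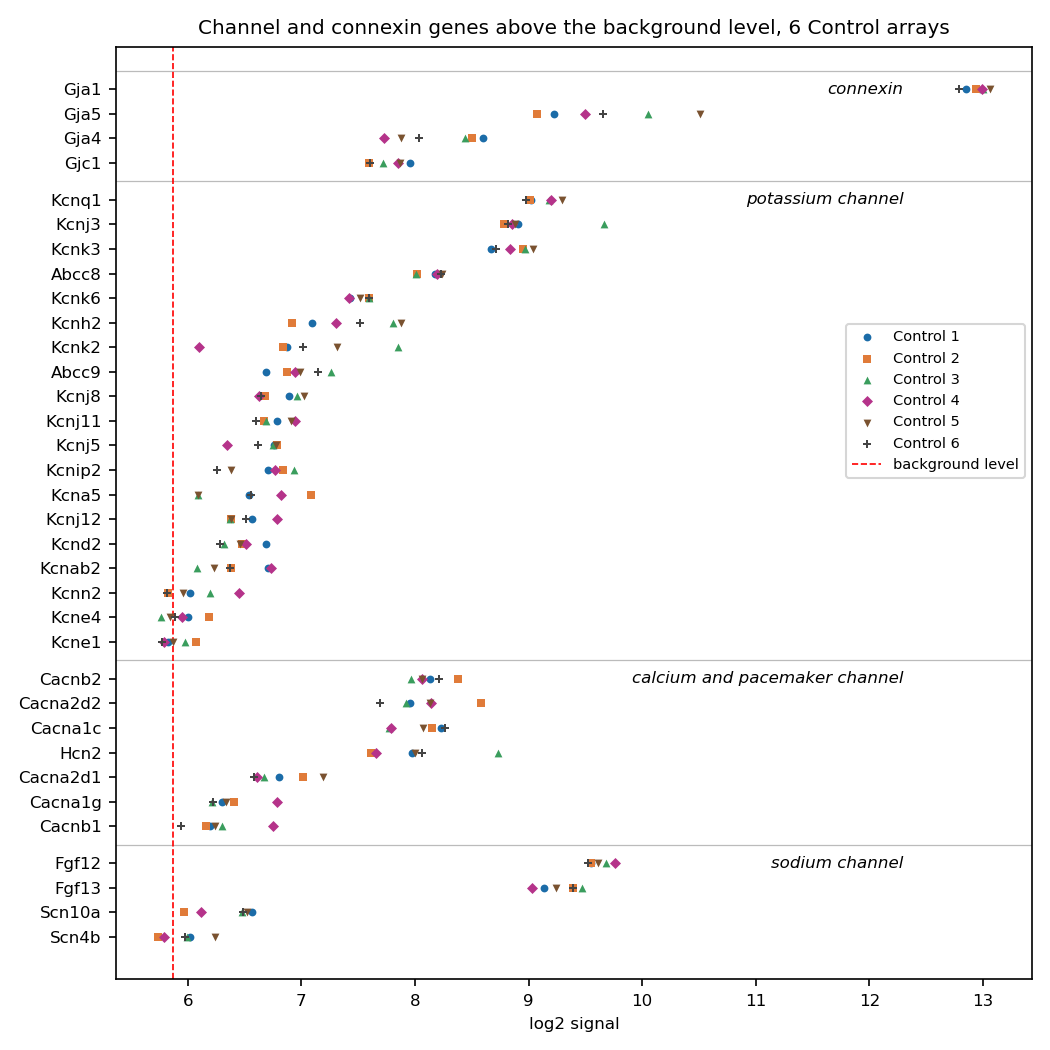
Log2 signal of each connexin, potassium channel, calcium and pacemaker channel and sodium channel gene above the background level of 5.87 (dashed line), with 1 symbol per Control array. Gja1 stands alone near 13, Gja5 and Kcnk2 are spread widely, and the genes at the foot of the potassium group touch the background line.

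Genes of energy metabolism were bright. Of the oxidative phosphorylation list 54 of 56 measured genes lay above background, with a median level of 11.95 over all 56, against 5.86 over all genes. The citrate cycle list had a median of 10.20 and the glycolysis list of 10.22. Mdh2 at 12.47 ± 0.18, Idh2 at 11.90 ± 0.14 and citrate synthase, Cs, at 11.86 ± 0.09 led the citrate cycle, and Gapdh at 13.06 ± 0.07, Pfkm at 11.95 ± 0.11 and Tpi1 at 11.93 ± 0.12 led glycolysis. Fabp3, Acaa2 at 12.78 ± 0.16 and Hadhb at 12.27 ± 0.18 led fatty acid oxidation. Myoglobin, Mb, was at 13.18 ± 0.17, the channel Vdac1 at 13.16 ± 0.13 and the mitochondrial creatine kinase Ckmt2 at 12.31 ± 0.10. Probes of the muscle isoforms read brighter in most metabolic pairs. Except for Fabp3 minus Fabp4, these differences were under 5.92, the 90th percentile of the probe gap for genes over a level of 10. Cpt1b, the muscle form of the enzyme that admits fatty acids to mitochondria, exceeded the liver form Cpt1a by 5.17 ± 0.39. Pfkm exceeded Pfkp by 5.12 ± 0.22, and Pgam2 exceeded Pgam1 by 4.51 ± 0.58. Cox7a1 exceeded Cox7a2 by 3.70 ± 0.21, Cox6a2 exceeded Cox6a1 by 2.83 ± 0.24 and Cox8b exceeded Cox8a by 1.68 ± 0.24, the first isoform of each being that of striated muscle. Slc2a4, the insulin-responsive glucose transporter, exceeded Slc2a1 by 1.49 ± 0.23, and Hk2 exceeded Hk1 by 1.05 ± 0.34. Ldhb, the heart form of lactate dehydrogenase, exceeded Ldha by 0.88 ± 0.25, but when all probes were averaged this pair turned round to -1.67, as did Ckm minus Ckb to 1.92. Fabp3 exceeded Fabp4, the form of fat and endothelium, by 7.44 ± 0.31. Ppara and Pparg, receptors that control fat metabolism, were at 5.42 ± 0.09 and 5.91 ± 0.29, with overlapping ranges.

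Markers of cells other than myocytes showed what else the dissected tissue held. In bulk RNA, fewer cells of a type and less RNA per cell cannot be told apart. Of the fibroblast list 15 of 16 genes lay above background, led by Dcn at 13.36 ± 0.08, Mgp at 12.54 ± 0.25 and Col3a1 at 11.95 ± 0.25. Of the endothelial list 14 of 15 did, led by Emcn at 10.53 ± 0.20, Esam at 10.18 ± 0.05 and Flt1 at 10.04 ± 0.12. Of the smooth muscle and pericyte list 9 of 12 lay above background, led by smooth muscle actin, Acta2, at 11.96 ± 0.38. Myh11, of the same list, was at 6.22, and Tagln, Cnn1 and Lmod1 were at 5.35, 5.27 and 5.00, below background. Of the mesothelial and epicardial list 10 of 13 lay above background, with Upk3b at 9.39 ± 0.16, Gpm6a at 8.90 ± 0.27 and Msln at 8.51 ± 0.29. Of the macrophage list 11 of 12 did, with Lyve1, Lyz2 and Mrc1 between 8.64 and 8.87. By contrast 1 of 12 lymphocyte genes, 1 of 13 lung epithelium genes, 2 of 8 thymus genes, 1 of 8 thyroid and cartilage genes and 3 of 16 nerve and ganglion genes lay above background. Their brightest members, Cd3d at 5.88, Wfdc2 at 6.07, Cd1d1 at 6.23, Acan at 6.29 and Sncg at 6.05, were all within 0.5 of the background level. Of the brown fat genes 4 of 7 and of the adipocyte genes 4 of 10 lay above background, including Dio2 at 7.23 and Scd1 at 8.89. Adipoq at 5.88 and Cidea at 5.92 were barely above it, and Ucp1 and Plin1, at 5.18 and 5.11, lay below it.

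Spread between the arrays was tested gene by gene. Each animal was read on a single array, so differences between animals cannot be told apart from those of dissection, RNA preparation, labelling or array. The variance over the 6 Control arrays was compared with that of probes of like brightness (limma, robust prior with an intensity trend, Benjamini-Hochberg adjustment over all probes). At an adjusted p under 0.05, 134 of 17655 genes (0.759%) varied more, and 1275 did so at an unadjusted p under 0.05. The median SD was 0.18 over all genes, 0.59 over the 134, and 1.61 at most. Without Control 5 the count was 86, all of them among the 134, and 41 of the 134 genes kept the call whichever array was left out. Of the 134 genes, 129 lay above background and 58 were on a list. Calls were not spread evenly over the arrays. Control 3 was the lowest array for 52 of them (38.8%) and Control 5 for 43 (32.1%), while over all genes above background these shares were 21.9% and 14.8%. Control 2 was the highest array for 38 and Control 1 for 31. Over all genes above background, Control 1 to 6 were the highest array for 14.3%, 15.2%, 20.9%, 20.45%, 17.8% and 11.3%. Where a call was lost when an array was left out, that array is named below, or the count of the list without that array is given. An adjusted p given beside a loss is that of the fit without the array, or the highest where there are several.

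**Figure D3:**
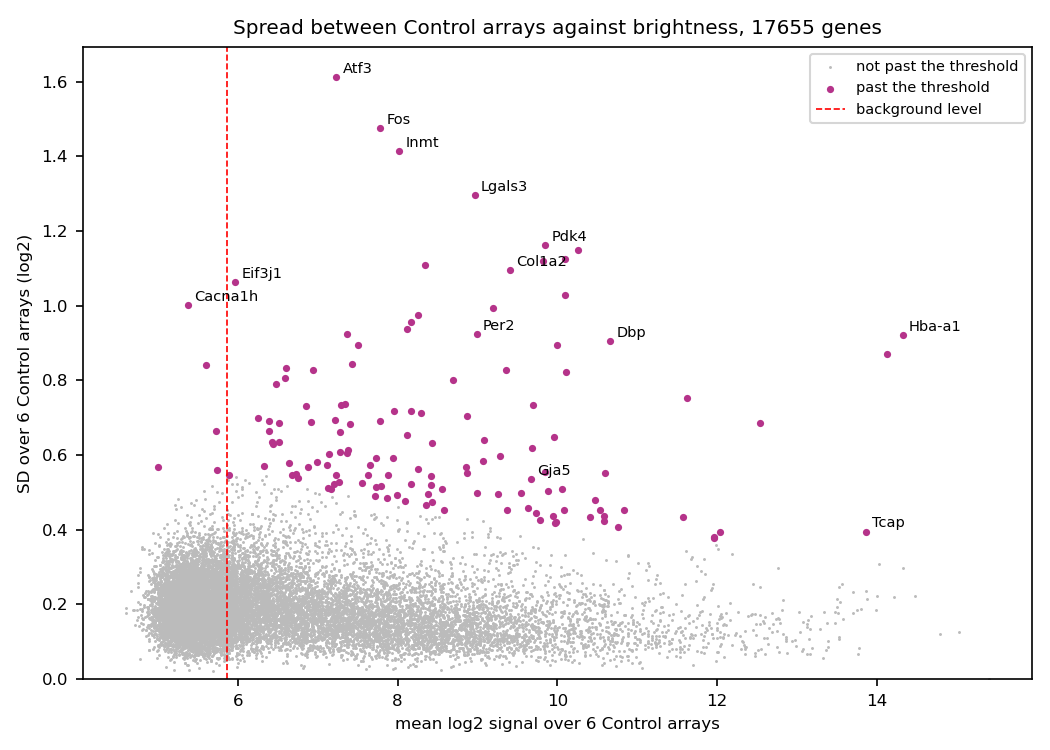
SD over the 6 Control arrays against mean log2 signal for 17655 genes, with the genes past the threshold of the variance test in purple and the background level of 5.87 as a dashed line. Most genes lie under an SD of 0.4 at every brightness, and Atf3, Fos, Inmt and Lgals3 stand highest.

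The single genes with the largest SDs, Atf3 and Fos, are immediate early genes, which cells switch on within minutes of a stimulus. Of 27 measured members of that list 8 were called, and with averaged probes, or with odd or even replicate number as a covariate, 4. The median SD of the list above background was 0.31, beside 0.73 for red cell genes, 0.52 for cell cycle genes, 0.48 for clock genes and 0.17 for all genes. Atf3, a stress-induced repressor, had the largest SD of all called genes, 1.61, with 8.54, 8.14, 5.36, 7.31, 5.17 and 8.88 in Control 1 to 6 (adjusted p = 1.14e-10). It was thus at or below background in Control 3 and Control 5 and well above it in the other arrays. Fos, a subunit of AP-1, had 6.36, 8.03, 7.22, 9.97, 6.21 and 8.88 (SD 1.48, adjusted p = 1.53e-10). Egr1, an early zinc finger factor, had 9.58, 9.97, 10.08, 11.16, 8.95 and 10.91 (SD 0.82, adjusted p = 4.6e-07). Ccn2, connective tissue growth factor, a target of stretch and TGF-beta, had 11.99, 12.48, 11.19, 11.75, 10.35 and 11.99 (SD 0.75, adjusted p = 5.32e-07). Egr2, Egr3, Ccn1 and Jun, named here after their values were seen, had SDs between 0.61 and 0.68. Control 5 was the lowest array for all 8, and for 12 of the 19 list members above background. The mean deviation of those 19 genes from their own means was -0.58 in Control 5 and 0.40 in Control 6. The highest array differed, being Control 4 for 3 of the 8, Control 6 for 3 and Control 2 for 2. In Fos, Egr2, Egr3, Ccn1 and Jun every even-numbered array lay above every odd-numbered one, but not in Atf3, Egr1 and Ccn2. In the series the odd-numbered replicates of both groups are listed first and the even-numbered ones after them. Whether these blocks were processed apart is not given in the sources used here and was not tested. Fosb and Dusp1 were bright and not called, at 10.58 ± 0.20 and 10.54 ± 0.23, and both were also lowest in Control 5. Without Control 5 the list kept 4 calls, those of Egr2, Egr3, Ccn1 and Jun being lost (highest adjusted p = 0.652). Without Control 6 the list had 7 calls.

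Heat shock and stretch genes were low in the same array. Of 12 heat shock genes 4 were called (0 with averaged probes, 2 with odd or even replicate number as a covariate or without the robust option of the prior), and 8 of the 11 above background were lowest in Control 5 and 8 highest in Control 2. Hsp90aa1, the inducible form of HSP90, had 10.15, 10.66, 9.27, 9.61, 8.55 and 9.91 in Control 1 to 6 (SD 0.73, adjusted p = 6.52e-06). Hspb1, a small heat shock protein, ranged from 10.98 in Control 5 to 12.10 in Control 2 (SD 0.43, adjusted p = 0.00793, lost without Control 2 or 5, 0.151). Dnajb1, a co-chaperone of HSP70, was high in Control 6 alone, at 10.80 against 8.94 to 9.79 in the others (SD 0.62, lost without Control 6, 0.674). Hspa1a, inducible HSP70, was at 6.63 in Control 2 and 6.26 in Control 6 and at 5.33 to 5.44, below background, in the rest (SD 0.56, lost without Control 2 or 6, 0.637). The abundant Hspa8 and Cryab were not called, at 13.88 ± 0.21 and 13.38 ± 0.15. Without Control 2, and likewise without Control 6, the list had 2 calls. Of 18 stretch and fetal program genes 6 were called, and 8 of 15 above background were lowest in Control 5. Xirp1, an intercalated disc protein, ranged from 8.99 in Control 5 to 11.53 in Control 2 (SD 0.90, adjusted p = 9.13e-08). Nppb had 11.32 in Control 5 and 11.99 to 12.48 in the other arrays (SD 0.39, adjusted p = 0.0195, lost without Control 2 or 5, 0.993). Nppa, on the same list, was not called, and its range was 13.33 to 13.80. Nmrk2, a muscle enzyme of NAD synthesis, followed another order, from 6.72 in Control 6 to 9.10 in Control 3 (SD 0.94, adjusted p = 4.68e-07). Its second probe had an SD of 0.90. Of 14 glucocorticoid and stress genes 3 were called, Pdk4, Cdkn1a and Fkbp5, each lowest in Control 5, and the calls of Cdkn1a (0.33) and Fkbp5 (0.171) were lost without that array among others. Ddit4, a stress-induced brake on mTOR, was at 5.82 in Control 5, below background, against 7.21 to 8.07 in the others (SD 0.84, lost without Control 5, 0.747). Noct, a nocturnally expressed deadenylase relative, was low in Control 5 and Control 3, at 8.22 and 8.43, against 9.73 to 10.27 in the others (SD 0.83, adjusted p = 1.02e-06).

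**Figure D4:**
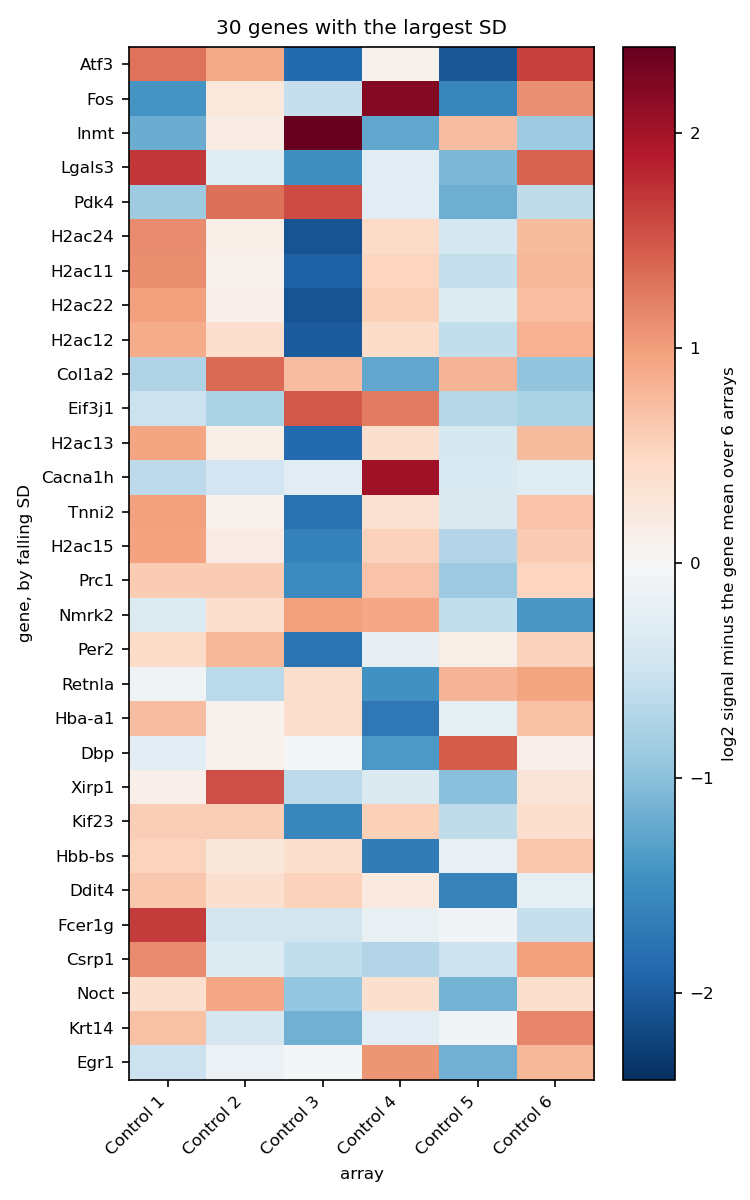
Log2 signal minus the mean of each gene over the 6 Control arrays, for the 30 genes with the largest SD among those past the threshold, sorted by SD. The block of H2ac genes is low in Control 3, the globins Hba-a1 and Hbb-bs in Control 4, and Atf3, Fos, Xirp1 and Ddit4 are low in Control 5.

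Circadian clock genes also varied. In the clock, the activator pair of Clock and Arntl drives the Per and Nr1d1 genes and the PAR-domain factors Dbp and Tef, whose products feed back or act on D-box elements, and Nr1d1 in turn represses Arntl through ROR elements. Of 18 measured clock genes 8 were called, not all in the same direction across the arrays, and the count was 1 with averaged probes and 4 without the robust option of the prior. Dbp had 10.39, 10.76, 10.61, 9.29, 12.11 and 10.78 in Control 1 to 6 (SD 0.91, adjusted p = 3.21e-08), highest in Control 5 and lowest in Control 4. Arntl had 6.61, 6.09, 7.07, 7.16, 5.32 and 6.12 (SD 0.69, adjusted p = 0.00295), lowest in Control 5, where it lay below background, and highest in Control 4. Per2 had 9.44, 9.79, 7.24, 8.80, 9.13 and 9.54 (SD 0.92, adjusted p = 1.73e-07), with Control 3 apart from the rest. Tef ranged from 9.29 in Control 3 to 10.52 in Control 5 (SD 0.42, adjusted p = 0.0333). The other called genes were named after their values were seen. Nr1d1 ranged from 6.13 in Control 4 to 7.85 in Control 5 (SD 0.69) and Per3 from 7.43 in Control 3 to 8.59 in Control 5 (SD 0.48). Nfil3, a repressor at D-boxes, was lowest in Control 5 at 6.48, against 7.01 to 7.83 in the others (lost without Control 2, 4 or 5, 0.47). Usp2 was lowest in Control 3 at 7.20, against 8.05 to 8.65 (lost without Control 3, 0.958). Thus 4 of the 8 were highest and 2 lowest in Control 5, and 4 were lowest in Control 3. Dbp kept its call whichever array was left out. The call of Arntl was lost without Control 5 (adjusted p = 0.208), that of Per2 without Control 3 (0.0855), that of Nr1d1 without Control 5 (0.058), that of Tef without Control 1, 3 or 5 (0.555) and that of Per3 without Control 3, 4, 5 or 6 (0.166). Without Control 5 the list kept 3 calls and without Control 3 it kept 4. The labels do not state the time of day at which each animal was taken.

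The promoters of called clock genes were read for the elements named above, because these genes are tied to one another in the known clock. In Control 4 and Control 5 the values of Arntl ran against those of Dbp, Nr1d1, Tef and Per3, but in Control 3 Arntl and Nr1d1 were both high, at 7.07 and 7.66. Windows of 300 bases around each RefSeq start on GRCm38.p6 were available for 7 of the 8 genes (9 windows). Both strands were searched, positions are counted from 1 at the 5′ end of the window, and capitals mark the match. The Arntl window (chr7:113207261-113207560, plus strand) held a ROR element at position 277. The Per3 window (chr4:151044616-151044915, minus strand) held D-boxes (TTANGTAA) at positions 46 and 93. The Tef window shown (chr15:81811164-81811463, plus strand) held an E-box (CACGTG), the element bound by Clock and Arntl, at position 113, and a second Tef window held another at 124. Each of the 3 elements occurred in 1 of the 7 genes. Among all 32851 promoter windows of this length an E-box occurs in 7.15%, a D-box in 2.32% and a ROR element in 0.384%. The matches shown do not overlap one another. A match of letters is not evidence of binding.
Arntl: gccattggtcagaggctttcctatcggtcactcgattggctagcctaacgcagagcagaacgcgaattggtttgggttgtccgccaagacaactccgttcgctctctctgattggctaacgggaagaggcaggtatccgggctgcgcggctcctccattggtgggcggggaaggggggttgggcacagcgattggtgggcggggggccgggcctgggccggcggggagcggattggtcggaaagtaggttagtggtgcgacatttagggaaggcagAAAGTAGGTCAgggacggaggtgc
Per3: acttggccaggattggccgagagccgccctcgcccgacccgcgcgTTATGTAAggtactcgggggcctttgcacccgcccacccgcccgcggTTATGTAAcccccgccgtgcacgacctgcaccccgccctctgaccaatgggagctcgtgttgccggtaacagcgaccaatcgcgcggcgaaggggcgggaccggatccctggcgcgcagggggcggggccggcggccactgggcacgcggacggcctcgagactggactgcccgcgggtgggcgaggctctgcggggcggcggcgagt
Tef: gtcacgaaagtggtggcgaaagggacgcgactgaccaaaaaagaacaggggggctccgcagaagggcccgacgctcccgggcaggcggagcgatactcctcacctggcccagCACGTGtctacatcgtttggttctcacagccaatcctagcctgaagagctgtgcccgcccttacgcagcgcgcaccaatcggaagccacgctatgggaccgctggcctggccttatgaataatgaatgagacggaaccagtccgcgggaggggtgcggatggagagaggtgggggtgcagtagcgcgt

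Proliferation genes and histones were both low in Control 3. Of 17 measured cell cycle genes 5 were called, Mcm5, Mki67, Nusap1, Cdk1 and Top2a, and all 5 were lowest in Control 3. The count was 0 with averaged probes and 2 with odd or even replicate number as a covariate or without the robust option of the prior. Over the 13 list members above background the mean deviation was -0.66 in Control 3 and -0.39 in Control 5, and between 0.14 and 0.39 in the other 4 arrays. Nusap1, a spindle protein, had 7.66, 7.72, 6.12, 7.56, 6.58 and 7.69 in Control 1 to 6 (SD 0.69, adjusted p = 0.000653), and Top2a had 6.82, 6.87, 5.33, 6.91, 6.00 and 6.63 (SD 0.64, adjusted p = 0.00867). The midzone genes Prc1 and Kif23, which are on no list, followed the same arrays, Prc1 with 8.77, 8.78, 6.64, 8.85, 7.30 and 8.68 (SD 0.96, adjusted p = 2.96e-07) and Kif23 with 5.95 in Control 3 and 6.89 in Control 5 against 7.91 to 8.10 elsewhere (SD 0.89). Prc1 and Kif23 kept their calls whichever array was left out. The cell cycle list had 3 calls without Control 1, 4 without Control 2 and 3 without Control 5. The calls of all 5 list members were lost without Control 3 (highest adjusted p = 0.729), while 115 genes in all were still called. All 5 were also called in the 6 Tbx3 arrays, where 11 members of the list were called. Of 16 measured H2ac genes, which encode near-identical copies of histone H2A and whose probes may share signal, 10 were called, and all 10 were lowest in Control 3 and highest in Control 1. H2ac24, for example, had 11.39, 10.41, 8.18, 10.72, 9.84 and 11.01 (SD 1.15, adjusted p = 5.83e-10). Read as separate genes, these copies count a single pattern up to 10 times among the 134 calls.

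Lgals3, galectin-3, a lectin of macrophages and stressed tissue, had 10.66, 8.67, 7.49, 8.70, 7.89 and 10.39 (SD 1.297, adjusted p = 2.77e-10), and Tnni2, fast skeletal troponin I, had 10.19, 9.29, 7.40, 9.56, 8.84 and 9.88 (SD 0.99, adjusted p = 2.87e-08). Both ordered the arrays exactly as the 10 H2ac genes did, from Control 1 and 6 at the top to Control 5 and 3 at the bottom. Of the 134 called genes 14 (10.4%) had this order, beside 36 (0.413%) of all genes above background. The order was taken from these genes after it was seen, and 10 of the 14 are the H2ac copies. The epithelial keratins Krt14 and Krt8, the second a mesothelial marker, were also highest in Control 6 and Control 1 and lowest in Control 3. Krt14 had 8.12 in Control 6, 7.64 in Control 1 and 5.79 in Control 3 (SD 0.83, adjusted p = 5.68e-05), and Krt8 had 7.25, 7.10 and 5.33 in the same arrays (SD 0.68, adjusted p = 0.00289, lost without Control 3, 0.554). Of the mesothelial and epicardial list above background 5 of 10 were highest in Control 6, beside 11.3% of all genes above background. The list was not uniform, since 3 of the 10, Gpm6a, Tbx18 and Lrrn4, were highest in Control 3 and 3 were lowest there. The mean deviation of the 10 was 0.21 in Control 6, 0.13 in Control 1 and -0.14 in Control 3. Csrp1, a LIM protein of smooth muscle, was at 7.73 and 7.59 in Control 1 and 6, and between 5.89 and 6.28 elsewhere (SD 0.83, adjusted p = 9.84e-05). The part of mesothelial tissue in these differences was not tested.

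Red cell genes set Control 4 apart. Of 9 measured genes 6 were called, and all 6 were lowest in Control 4. Hba-a1 had 15.05, 14.40, 14.73, 12.60, 14.09 and 15.03 in Control 1 to 6 (SD 0.92, adjusted p = 5.83e-10), and Hbb-bs, the adult beta globin, had 14.66, 14.40, 14.52, 12.46, 13.96 and 14.80 (SD 0.87, adjusted p = 1.77e-09). Control 4 lay 1.498 below the next array in Hba-a1, and Hbb-bs had a gap of like size. Hbb-b2 ranged from 11.28 to 13.14, Hbb-bt from 7.45 to 9.41, Alas2, the heme synthesis enzyme of red cells, from 7.05 to 8.90, and Slc4a1, the band 3 anion exchanger, from 5.82 to 7.70. The beta globins are similar in sequence and their probes may share signal. The mean deviation of the 7 list members above background was -1.16 in Control 4 and -0.33 in Control 5, against 0.58 in Control 1. Without Control 4 the list kept 3 calls, and the calls of Hbb-bs, Hbb-b2 and Alas2 were lost (highest adjusted p = 0.199). In the same Control 4, 27 of 54 oxidative phosphorylation genes above background had their highest value, with a mean deviation of 0.12. Of all genes above background 20.45% were highest there. The spread of Hba-a1 was 0.92 in the Control arrays and 0.30 in the Tbx3 arrays, and that of Hbb-bs 0.87 and 0.27.

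Few metabolic genes were called. Pdk4, a kinase that shuts pyruvate out of the citrate cycle in fasting, had 8.99, 11.17, 11.42, 9.59, 8.67 and 9.25 in Control 1 to 6 (SD 1.16, adjusted p = 5.83e-10), so that Control 2 and Control 3 stood 1.58 above the next array. Ppargc1a, the coactivator of mitochondrial genes, was lowest in Control 3, at 7.77 against 8.75 to 9.33 in the others (SD 0.57, adjusted p = 0.00156, lost without Control 3, 0.97). They were the only called members among 34 measured fatty acid oxidation genes. Of these, 16 of 30 above background were highest in Control 3, beside 20.9% of all genes above background. The mean deviation of those 30 genes there was 0.17. Their median SD was 0.23, above the 0.17 of all genes above background, and 11 of the 34 passed at an unadjusted p under 0.05. Among 56 oxidative phosphorylation genes the only call was Ndufb10, a complex I subunit, at 11.38 in Control 4 against 10.11 to 10.58 (SD 0.45, lost without Control 4, 0.983). limma called no gene of the citrate cycle, glycolysis or creatine lists (1, 3 and 1 of their genes passed at an unadjusted p under 0.05). The median SD of their members above background was 0.13, 0.15 and 0.14. Txnip, a glucose-responsive thioredoxin inhibitor named after its values were seen, was highest in Control 3 at 10.95, against 9.62 to 10.39 (SD 0.51, adjusted p = 0.00271, lost without Control 3, 0.449).

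**Figure D5:**
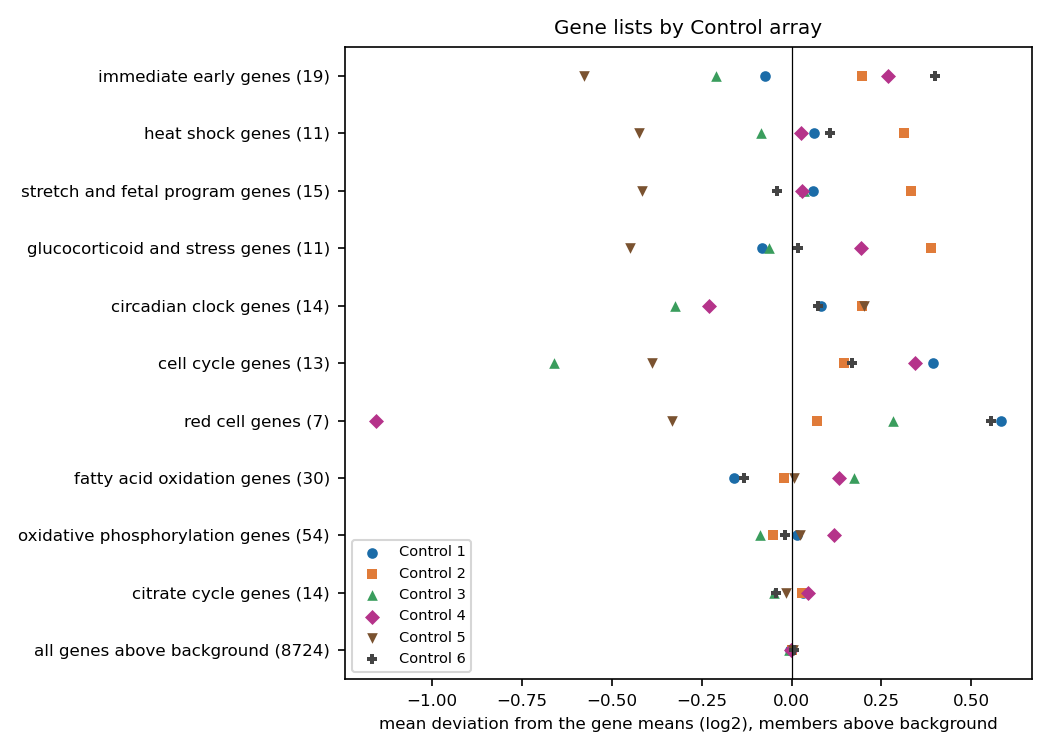
Mean deviation of list members above background from their own means over the 6 Control arrays, with 1 symbol per array and the number of members in parentheses. Control 5 is lowest in the immediate early, heat shock, stretch and glucocorticoid lists, Control 3 in the cell cycle and clock lists and Control 4 in the red cell list, while the citrate cycle list and all genes stay near 0.

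Among stromal genes 3 of 16 fibroblast markers were called, and 1 with averaged probes or without the robust option of the prior. Col1a2, the alpha 2 chain of type I collagen, fell into 2 sets, with 10.77, 10.15 and 10.22 in Control 2, 3 and 5 and 8.69, 8.17 and 8.47 in Control 1, 4 and 6 (SD 1.10, adjusted p = 2.62e-09). Its partner chain Col1a1 did not follow, with 8.63 in Control 3 and 9.47 to 10.11 elsewhere (SD 0.50, adjusted p = 0.00536, lost without Control 3, 0.914), and Postn ranged from 7.17 in Control 3 to 8.68 in Control 2 (SD 0.49, lost without Control 2 or 3, 0.653). Without Control 3 the list kept 1 call. Inmt, a methyltransferase of indoles, had 6.84, 8.20, 10.41, 6.78, 8.77 and 7.14 (SD 1.41, adjusted p = 2.11e-10), the third largest spread of the called genes, and it was highest in the array in which the cell cycle genes were lowest. Lyve1, a receptor of resident macrophages and lymphatic vessels, was at 8.03 and 7.95 in Control 3 and 5 and at 9.10 to 9.65 in the others (SD 0.70, adjusted p = 4.1e-05). Retnla, a product of alternatively activated macrophages, ranged from 5.92 in Control 4 to 8.31 in Control 6 (SD 0.92, adjusted p = 2.59e-06), while Lyz2 and Mrc1 were level, at 8.82 ± 0.15 and 8.64 ± 0.17. Acta2 was highest in Control 3, at 12.62 against 11.57 to 12.04 (SD 0.38, adjusted p = 0.0339, lost without Control 2, 3 or 6, 0.893).

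A few genes of the myocyte itself varied. Gja5 differed between arrays (SD 0.53, adjusted p = 0.0018, lost without Control 5, 0.224), while Gja1 had an SD of 0.10. Gja5 was called in the Tbx3 arrays as well. Myl3 had 10.15, 8.67, 8.59, 9.40, 9.20 and 9.66 (SD 0.60, adjusted p = 0.00046, lost without Control 1, 0.0682). Tcap, telethonin of the Z-disc, ranged from 13.41 in Control 4 to 14.51 in Control 5 (SD 0.40, adjusted p = 0.00543, lost without Control 4 or 5, 0.577). Ttn, titin, named after its values were seen, was highest in the same Control 5 at 12.52 and lowest in Control 3 at 11.40 (lost without Control 1, 3 or 5, 0.544). Lrrc10 was lowest in Control 5, at 8.94 against 9.80 to 10.11 (SD 0.43, adjusted p = 0.0318, lost without Control 5 or 6, 0.998). Chrm2, the muscarinic receptor through which the vagus slows the heart, was at 5.25, below background, in Control 3 and at 6.34 to 6.89 in the others (SD 0.57, adjusted p = 0.0358, lost without Control 1 or 3, 0.997). Casq1 ranged from 7.69 in Control 3 to 9.29 in Control 6 (SD 0.51, lost without Control 3 or 6, 0.489). Among 30 potassium channel genes only Kcnk2, a stretch-sensitive tandem-pore channel, was called, from 6.10 in Control 4 to 7.85 in Control 3 (SD 0.58, adjusted p = 0.0124, lost without Control 3 or 4, 0.299).

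Some calls rested on 1 array or on a pair. Cacna1h was at 7.40 in Control 4 and between 4.74 and 5.10, below background, elsewhere (SD 1.00, adjusted p = 1.18e-06, lost without Control 4, 0.998), and a second Cacna1h probe had an SD of 0.13. Fcer1g, the gamma chain of Fc receptors, was at 7.27 in Control 1 and at 5.04 to 5.53 elsewhere (SD 0.84, lost without Control 1, 0.999). Eif3j1, a subunit of an initiation factor of translation, was at 7.44 and 7.22 in Control 3 and 4 and at 5.20 to 5.45, below background, in the other 4 (SD 1.06, adjusted p = 1.3e-06), with no value between the sets. Ext2, named after its values were seen and like Eif3j1 on chromosome 2, was at 7.25 and 7.50 in the same arrays and at 6.26 to 6.39 elsewhere (SD 0.55, adjusted p = 0.0376, lost without Control 3, 4, 5 or 6, 0.387). Both were called in the Tbx3 arrays too. Over the 134 genes, 12 had 1 array apart above the rest by more than 50% of the range, 21 had 1 array apart below and 22 fell into 2 larger sets.

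Set beside the 6 Tbx3 arrays, the spread of the Control arrays was of the same order. In the Tbx3 arrays 149 genes (0.844%) were called by the same test. The groups shared 62 calls, which were 46.3% of the Control calls and 41.6% of the Tbx3 calls. Over the 134 Control calls the median SD was 0.59 in the Control arrays and 0.46 in the Tbx3 arrays, beside 0.18 and 0.18 over all genes. The Tbx3 arrays had the larger SD for 41 of the 134. These genes were picked by their Control spread, which by itself favours a smaller SD in the other group. Atf3, Fos, Inmt, Lgals3, Dbp, Egr1, Prc1, Kif23 and Csrp1 were called in both groups, with SDs in Tbx3 arrays of 0.73, 1.09, 1.02, 0.74, 1.06, 1.26, 1.31, 1.00 and 1.14. Pdk4, Col1a2, Per2, Xirp1, Hsp90aa1, Hba-a1 and Hbb-bs were called in the Control arrays and not in the Tbx3 arrays, where their SDs were 0.21, 0.41, 0.22, 0.37, 0.31, 0.30 and 0.27. The difference in spread between the groups was not tested.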

How the data were processed

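RNA of the atria of 12 male mice was measured on Illumina Sentrix Mouse-6 beadchips, 6 Control and 6 Tbx3. Total RNA was taken with a nucleospin column and amplified with biotin labelling, per the labels' protocols. The values deposited by the authors are on a natural log scale. The base was inferred from the range of the Control values, 2.77 to 10.81, since base 2 would put the brightest probe at a signal of only 1795. How they were background corrected and normalized is not given in the sources used here, and detection p-values were not used. Were the base 2, every log2 difference here would be 0.693 times as large.

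Values were divided by 0.693 to give log2 and quantile normalized over the 12 arrays, because the interquartile ranges of the deposited values differed by 20.4%. Of 46133 rows, 10 empty and 9 repeated ones were left out. Gene symbols came from the platform annotation and were updated through a GRCm38.p6 gene table (29485 probes). For spread, an intercept was fitted to the 6 Control arrays with limma 3.58.1 in R 4.3.3, and the variance of each probe was tested against a robust prior with an intensity trend (one-sided F test, Benjamini-Hochberg over 46114 probes, threshold 0.05). The same was done for the Tbx3 arrays. Precision is limited by having 6 arrays. The test was tried on simulated data, where it missed many moderate increases of spread, so a gene that was not called is not thereby shown to be steady.

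Named were the 25 brightest genes, the 30 called genes with the largest SD, the members of the pairs, and called or bright members of the lists, and other genes are said to be chosen after their values were seen. The members and lists were chosen with earlier results of these data known. Alternatives covered normalization, prior, filter, probe choice, threshold, log base and leaving out each array.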

Additional observations from a re-analysis of the deposited data

Results flagged for a closer look

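In a group of 6 arrays, a value stood apart when its gap to the nearest other array, divided by the range of the 6, exceeded Dixon's 95% critical value. This held for 23 of 318 levels, pair differences and list means (7.23%). Some of these genes were named for their large spread, and the pair differences and list means reuse the same genes. The 1 in 20 that chance gives for independent values picked beforehand is therefore no standard for this share. No cause was tested for any of them.

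Fcer1g had 7.27 in Control 1, the highest of the 6, against 5.04 to 5.53 in the other arrays (gap over range 0.78). Cox8b had 12.35 in Control 2, the lowest of the 6, against 12.66 to 12.84 in the other arrays (gap over range 0.641). Acta1 had 8.12 in Control 3, the highest of the 6, against 6.78 to 7.18 in the other arrays (gap over range 0.697). Cd3d had 6.38 in Control 3, the highest of the 6, against 5.70 to 5.88 in the other arrays (gap over range 0.723). Kcnj3 had 9.66 in Control 3, the highest of the 6, against 8.79 to 8.91 in the other arrays (gap over range 0.863). The mean deviation of ventricular myocyte genes was 0.09 in Control 3, the highest of the 6, against -0.04 to 0.00147 in the other arrays (gap over range 0.688). The mean deviation of thyroid and cartilage genes was 0.13 in Control 3, the highest of the 6, against -0.06 to 0.00103 in the other arrays (gap over range 0.671). Chrm2 had 5.25 in Control 3, the lowest of the 6, against 6.34 to 6.89 in the other arrays (gap over range 0.663). Egln3 had 7.63 in Control 3, the lowest of the 6, against 8.33 to 8.57 in the other arrays (gap over range 0.745). Mgp had 12.07 in Control 3, the lowest of the 6, against 12.52 to 12.74 in the other arrays (gap over range 0.669). Ppargc1a had 7.77 in Control 3, the lowest of the 6, against 8.75 to 9.33 in the other arrays (gap over range 0.627). Actc1 minus Acta1 had 6.48 in Control 3, the lowest of the 6, against 7.54 to 8.07 in the other arrays (gap over range 0.669). Hcn4 minus Hcn2 had -3.62 in Control 3, the lowest of the 6, against -2.64 to -2.11 in the other arrays (gap over range 0.65). Cacna1g had 6.78 in Control 4, the highest of the 6, against 6.21 to 6.41 in the other arrays (gap over range 0.658). Cacna1h had 7.40 in Control 4, the highest of the 6, against 4.74 to 5.10 in the other arrays (gap over range 0.868). Fabp4 had 6.56 in Control 4, the highest of the 6, against 5.91 to 6.09 in the other arrays (gap over range 0.717). The mean deviation of calcium and pacemaker channel genes was 0.16 in Control 4, the highest of the 6, against -0.07 to -0.00215 in the other arrays (gap over range 0.689). Hbb-bs had 12.46 in Control 4, the lowest of the 6, against 13.96 to 14.80 in the other arrays (gap over range 0.641). Cacna1g minus Cacna1h had -0.62 in Control 4, the lowest of the 6, against 1.12 to 1.55 in the other arrays (gap over range 0.799). Eno3 had 12.05 in Control 5, the highest of the 6, against 11.55 to 11.73 in the other arrays (gap over range 0.636). Pgam2 minus Pgam1 had 5.61 in Control 5, the highest of the 6, against 3.86 to 4.50 in the other arrays (gap over range 0.632). Lrrc10 had 8.94 in Control 5, the lowest of the 6, against 9.80 to 10.11 in the other arrays (gap over range 0.738). Ryr1 had 5.87 in Control 6, the highest of the 6, against 5.41 to 5.56 in the other arrays (gap over range 0.671).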

How the results depend on the processing

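No paired analysis was possible because the results come from a test of spread within 1 group at a time, and the Control and Tbx3 counts were set side by side with no test between them. The count of 134 genes was 75 with a prior without the robust option, 73 without the intensity trend, 56 over probes above background and 37 when the probes of each gene were averaged, each wholly among the 134. It lay between 86 and 131 when 1 array was left out. It was 122 with values as deposited, 113 with median centring, 138 with quantile normalization over the 6 Control arrays, 90 over probes above the median, 94 with odd or even replicate number as a covariate, 91 at a threshold of 0.01 and 134 with the brightest probe over all 12 arrays. The Tbx3 count of 149 was 91 without the robust option. With averaged probes Ckm minus Ckb became 1.92 and Ldhb minus Ldha -1.67, which shows that the choice of probe sets the sign of both. Reading the values as log2 moved 31 pair differences and 53 levels by more than 1 SD, and averaging probes moved 14 and 11. With averaged probes clock calls were 1, heat shock and cell cycle calls 0, immediate early calls 4 and fibroblast calls 1. With odd or even replicate number as a covariate cell cycle and heat shock calls were 2 and immediate early calls 4. Without the robust option clock calls were 4, heat shock and cell cycle calls 2 and fibroblast calls 1. Of the 30 most variable genes 5 lost the call with averaged probes, and 25 kept it whichever array was left out. Dim probes near the background level of 5.87 bear no order.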
